A study of Rattus norvegicus with 12 samples.

Results

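Pericytes are the contractile support cells wrapped around capillaries, and 10 genes commonly used as their markers were followed here in rat colon and hippocampus. The members were the rows carrying the symbols Pdgfrb, Cspg4, Higd1b, Abcc9, Rgs5, Notch3, Anpep, Vtn, Mcam and Ndufa4l2. All 10 were listed in both tissues, among 14803 genes listed for the colon, 14266 for the hippocampus and 13130 listed for both. Rats with hypoxic-ischemic brain damage (HI) were set against sham rats in 4 groups of 3 bulk RNA libraries: sham colon, HI colon, sham hippocampus and HI hippocampus. The study title describes the animals as neonatal, and the labels give no strain, exact age, sex or time after injury. They also do not say whether libraries came from separate animals, so p-values measure only the spread between these libraries, part of which may be technical. Each value is an FPKM, a count of sequenced fragments scaled to gene length and library size, so that levels of different genes can be set side by side.

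Pericytes share a basement membrane with the endothelium. They are recruited by PDGF-B, which endothelial cells release and which binds PDGF receptor beta on the pericyte, and they depend on Notch signalling from the endothelium. In the brain they help to build the blood-brain barrier and regulate capillary flow, and they react early to loss of oxygen. None of the markers belongs to pericytes alone: NG2, the product of Cspg4, is also made by oligodendrocyte precursors, aminopeptidase N by enterocytes, vitronectin by the liver, and Notch3, Rgs5, Abcc9 and Mcam by vascular smooth muscle. In bulk RNA, fewer pericytes and less RNA per pericyte cannot be told apart.

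The libraries carried the markers of their labelled tissue. Cdx2, an intestinal transcription factor, stood at 131 to 156 FPKM in the colon and was not listed for the hippocampus, while Camk2a, a neuronal kinase, stood at 478 to 600 in the hippocampus and at 0.806 to 2.12 in the colon. Some libraries stood apart from their group in ways the labels do not describe. The 3 listed Y-chromosome genes were at or under 0.202 FPKM in sham colon library 1 and at or above 10.6 in the other 5 colon libraries; in the hippocampus they were at or above 8.18 in HI library 1 and at or under 0.0959 in the other 5. The libraries of sham colon, and those of HI hippocampus, therefore did not all come from 1 animal; for the other groups these genes do not tell. HI hippocampus library 1 also held 4177 FPKM of Ttr, the choroid plexus transthyretin, against 12.9 and 18.2 in the other HI libraries and 0.391 to 6.76 in the sham libraries. The colon header gives 2 sham columns the same name, and these are called 3a and 3b below.

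In sham colon the markers formed a high pair and a lower set of 8. Mcam (60.8 ± 4.53 FPKM, SD, n = 3) and Rgs5 (60.4 ± 5.26) were not separated by their spread. Next in order of the mean came Anpep, Abcc9, Notch3, Pdgfrb and Cspg4, from 11.9 down to 7.52, and neighbours in this order overlapped across libraries. Ndufa4l2, Higd1b and Vtn stood lowest, at 4.51, 3.31 and 3.09, and Higd1b and Vtn overlapped. In sham hippocampus Rgs5 led at 47.2 ± 4.30, above Vtn (19.8 ± 0.879) and Mcam (18.7 ± 1.42), whose libraries overlapped. The lowest were Abcc9 at 3.52 ± 1.76 and Anpep at 2.64 ± 0.0862. Set side by side without a test, since the tissues were tabulated separately, the ratio of sham means was highest towards the colon for Anpep (4.53), Mcam (3.26) and Abcc9 (2.79). It was highest towards the hippocampus for Vtn (6.40) and Higd1b (2.20), while Cspg4 (1.08) and Notch3 (1.16, both colon over hippocampus) were close in level.

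**Figure D1:**
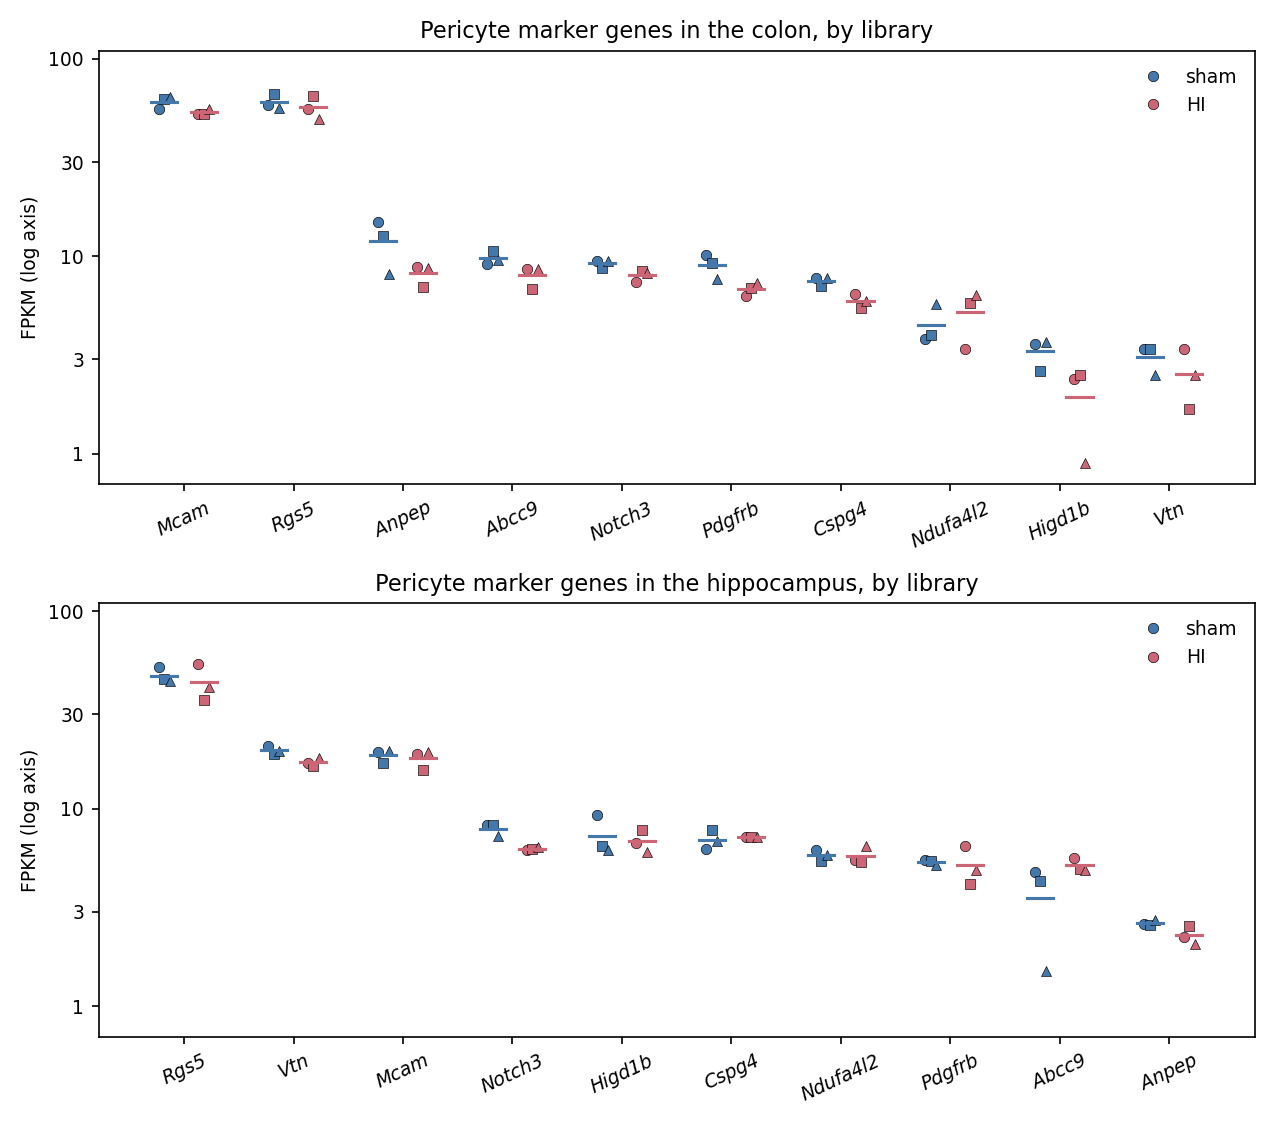
FPKM of the 10 pericyte marker genes in each library of sham and HI colon and hippocampus; circle, square and triangle are libraries 1, 2 and 3 (sham colon 1, 3a and 3b) and bars are group means. In the colon the HI libraries lie below all sham libraries for Pdgfrb, Cspg4, Higd1b, Abcc9 and Notch3, and in the hippocampus for Notch3, Vtn and Anpep.

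In the colon 9 of the 10 markers had a lower mean in HI, but none passed an adjusted p of 0.05 in limma's moderated test with Benjamini-Hochberg adjustment, where 0.0436% of the 13753 genes tested passed (6 genes). Unadjusted p-values were under 0.05 for 3 members, Cspg4, Pdgfrb and Higd1b, all lower in HI, against 6.55% of all genes lower and 4.6% higher. By sign alone, 59.1% of all genes were lower and 40.9% higher in HI. For 5 members every HI library lay below every sham library, a pattern held by 10.3% of all genes. The median log2 change of the members was -0.25 (range -0.60 to 0.15), beside -0.04 for all genes tested, whose quartiles ran from -0.15 to 0.07. All 10 members passed the filter on low values (1 FPKM or more in 3 or more libraries) in both tissues, and changes are on the log2(FPKM + 1) scale, which understates those of low genes.

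Pdgfrb, the receptor through which endothelial PDGF-B recruits pericytes (chr18:56364620-56406381, plus strand, in the deposited coordinates; the sources used here name no build), stood at 10.2, 9.30 and 7.71 FPKM in the sham colon libraries (in the order 1, 3a, 3b) and at 6.29, 6.94 and 7.36 in the HI libraries (1, 2, 3). All HI libraries were below all sham libraries, by a narrow margin between sham 3b and HI 3. The log2 difference was -0.35 ± 0.12 (SE; adjusted p = 0.402, limma). Notch3, the Notch receptor typical of mural cells (chr7:14138495-14189688, minus strand), stood at 9.48, 8.68 and 9.46 in sham colon and at 7.41, 8.41 and 8.25 in HI. These groups did not overlap either, though sham 3a and HI 2 nearly met, and the log2 difference was -0.18 ± 0.09 (adjusted p = 0.497).

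Cspg4, the NG2 proteoglycan of the pericyte surface (chr8:61532465-61567510, plus strand), stood at 7.79, 7.03 and 7.73 in sham colon and at 6.47, 5.44 and 5.94 in HI. Its groups were clearly apart, and the log2 difference was -0.29 ± 0.10 (adjusted p = 0.400). Mcam, the adhesion molecule CD146 (chr8:48472824-48481001, plus strand), stood at 55.6, 62.5 and 64.2 in sham and at 52.7, 52.5 and 56.0 in HI. Sham 1 lay just below the highest HI library, and the log2 difference was -0.17 ± 0.08 (adjusted p = 0.457). Anpep, aminopeptidase N (chr1:141561334-141604273, minus strand), ran from 14.9 and 12.7 down to 8.10 in sham and stood at 8.85, 6.97 and 8.75 in HI. Sham 3b lay inside the HI range, and the log2 difference was -0.46 ± 0.21 (adjusted p = 0.463). Vtn, the matrix glycoprotein vitronectin (chr10:65767053-65771038, plus strand), stood at 3.38, 3.39 and 2.50 in sham and at 3.37, 1.69 and 2.52 in HI. The groups overlapped and differed by -0.23 ± 0.20 (adjusted p = 0.665).

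Abcc9, the SUR2 subunit that pairs with Kir6.1 in the vascular potassium channel sensitive to ATP (chr4:176805431-176922424, minus strand), stood at 9.11, 10.7 and 9.58 in sham colon and at 8.67, 6.87 and 8.62 in HI. All HI libraries were lower, by -0.26 ± 0.12 on the log2 scale (adjusted p = 0.457). Kcnj8, which encodes Kir6.1, had means of 15.3 ± 0.479 in sham and 16.5 ± 3.26 in HI. Rgs5, a regulator of G protein signalling and an abundant mural transcript (chr13:87966758-88003035, plus strand), stood at 58.6, 66.3 and 56.3 in sham and at 55.6, 65.1 and 49.7 in HI. Its groups overlapped, with a log2 difference of -0.09 ± 0.11 (adjusted p = 0.779).

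Higd1b, a mitochondrial protein of the hypoxia-inducible domain family (chr10:90929423-90931639, plus strand), stood at 3.61, 2.62 and 3.69 in sham colon and at 2.40, 2.50 and 0.892 in HI. The low HI 3 library set much of the difference of -0.60 ± 0.26 (adjusted p = 0.447), which was -0.31 without it. Ndufa4l2, a mitochondrial subunit induced by hypoxia-inducible factor (chr7:70821957-70824085, plus strand), stood at 3.797, 3.99 and 5.74 in sham and at 3.41, 5.82 and 6.35 in HI. It was the one member with a higher mean in HI colon, and its groups overlapped (log2 difference 0.15 ± 0.23, adjusted p = 0.822).

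**Figure D2:**
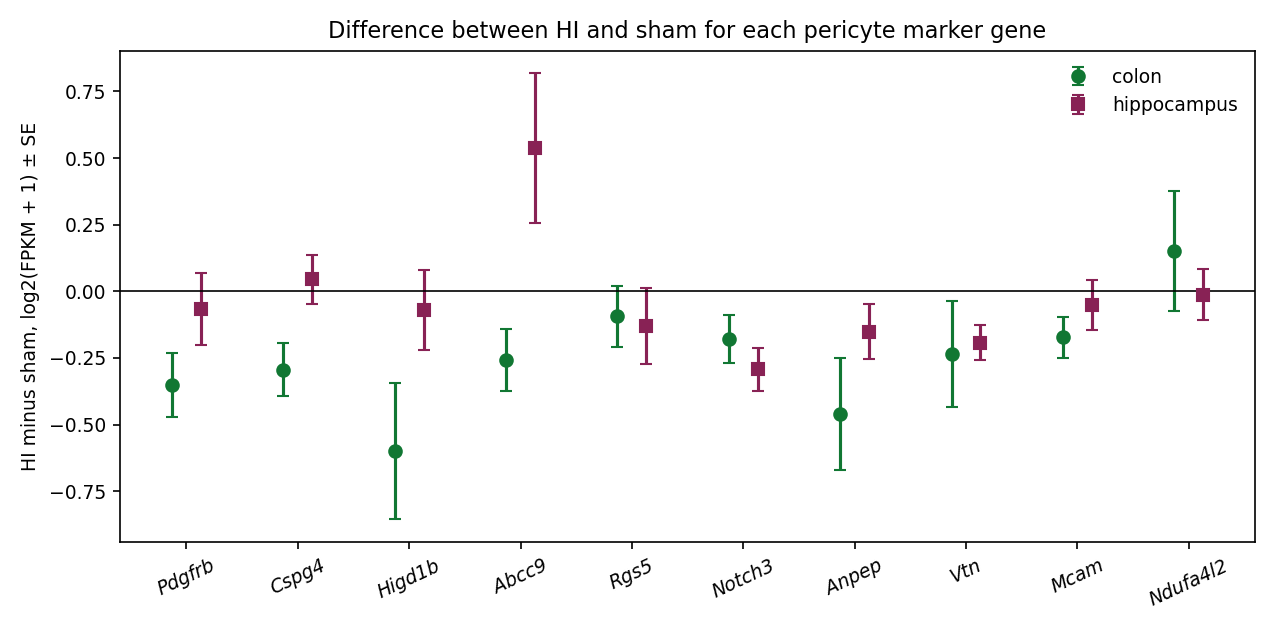
Log2 change of each pericyte marker, HI minus sham on log2(FPKM + 1), in colon and hippocampus; points are limma estimates and bars their standard errors. In the colon 9 of 10 points lie below 0, and in the hippocampus Abcc9 is the highest point and Notch3 the lowest.

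The direction of the colon difference did not rest on 1 marker or 1 library. No sham library was the lowest for any member, and the lowest value fell to HI 1 for 3 members, HI 2 for 5 and HI 3 for 2. The lowest library was not counted over all genes, of which 59.1% were lower in HI by sign. The mean log2 level of the 10 genes, relative to the sham mean, ran from -0.04 to 0.04 in sham and from -0.26 to -0.23 in HI. The lower mean in 9 of 10 members held with each colon library left out in turn. Unadjusted p-values under 0.05 fell from 3 members to 1 (Mcam) without sham 1 and to 2 without any of the others. The count over all genes moved too, from 1533 of 13753 to 780 of 13600 without sham 1 (limma). Among the other omissions it ran from 678 of 13592 without sham 3a to 2221 of 13606 without HI 1. A score of posterior over anterior Hox genes, which marks position along the gut, also differed: it was -2.18, -2.65 and 0.10 in the sham libraries and -0.84, 1.27 and 1.57 in the HI libraries, in the order above. With that score as a covariate no member had an unadjusted p under 0.05, against 692 of 13753 genes (limma). The log2 change turned direction for Vtn (0.13) and Ndufa4l2 (-0.37), that of Anpep was -0.08, and the members' median was -0.25.

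In the hippocampus 8 of 10 markers had a lower mean in HI, a sign shared by 50.5% of all genes (49.5% were higher), and again none passed the adjusted threshold (limma; 0.00759% of 13181 genes, that is 1 gene). Unadjusted p-values under 0.05 were found for Notch3 and Vtn, both lower, against 3.16% of genes lower and 3.45% higher (6.62% in either direction). Every HI library was below every sham library for 3 members, a pattern of 6.81% of genes, and above for Abcc9, a pattern of 6.4%. The members' median log2 change was -0.07 (range -0.29 to 0.54).

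Notch3 stood at 8.25, 8.31 and 7.24 in sham hippocampus and at 6.20, 6.28 and 6.37 in HI. The HI libraries were tightly grouped below all sham libraries, and the log2 difference was -0.29 ± 0.08 (unadjusted p = 0.00672, adjusted p = 0.672, limma). Vtn, the marker with the highest ratio of hippocampus to colon, stood at 20.7, 19.0 and 19.6 in sham and at 17.0, 16.5 and 18.03 in HI. Its groups did not overlap, with a log2 difference of -0.19 ± 0.07 (adjusted p = 0.716). Anpep, the least abundant, stood at 2.61, 2.57 and 2.73 in sham and at 2.23, 2.53 and 2.07 in HI. It too had no overlap, by a margin of hundredths, and differed by -0.15 ± 0.10 (adjusted p = 0.783).

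RefSeq promoter windows (build GRCr8, 300 bases around the start) were matched for 7 of the 10 members. The windows of the 3 members whose HI hippocampus libraries all lay below sham are printed 5′ to 3′. Each holds TGGGAA, the core letters bound by the Notch effector Rbpj. They were chosen by level and motif together, so no link between level and motif can be read from them. In the colon all HI libraries were below sham for Notch3, Cspg4 and Abcc9, and of these only Notch3 holds TGGGAA. Pdgfrb and Higd1b, also below sham there, had no matched window. Capitals mark TGGGAA on either strand and ACGTG, the core of the hypoxia response element, on either strand; no marked match overlaps another. Coordinates are chr7:11834536-11834835 (minus strand) for Notch3, chr10:63892532-63892831 (plus strand) for Vtn and chr1:143195052-143195351 (minus strand) for Anpep.
Notch3: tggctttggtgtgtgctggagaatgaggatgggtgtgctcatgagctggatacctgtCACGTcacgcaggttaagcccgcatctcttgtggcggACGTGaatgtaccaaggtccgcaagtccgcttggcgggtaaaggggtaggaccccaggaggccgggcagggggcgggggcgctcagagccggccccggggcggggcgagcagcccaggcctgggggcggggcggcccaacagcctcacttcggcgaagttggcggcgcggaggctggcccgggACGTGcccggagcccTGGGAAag
Vtn: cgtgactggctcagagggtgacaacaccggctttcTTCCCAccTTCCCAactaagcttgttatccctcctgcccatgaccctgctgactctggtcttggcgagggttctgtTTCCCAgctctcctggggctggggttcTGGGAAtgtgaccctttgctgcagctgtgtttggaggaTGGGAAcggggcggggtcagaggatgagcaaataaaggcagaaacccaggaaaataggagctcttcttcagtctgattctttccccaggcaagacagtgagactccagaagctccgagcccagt
Anpep: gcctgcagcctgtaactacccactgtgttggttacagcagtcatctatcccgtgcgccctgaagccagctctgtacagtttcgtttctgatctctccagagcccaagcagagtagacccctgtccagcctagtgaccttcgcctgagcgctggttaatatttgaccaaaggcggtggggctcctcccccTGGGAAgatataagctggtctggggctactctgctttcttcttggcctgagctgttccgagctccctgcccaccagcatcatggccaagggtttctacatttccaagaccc
TGGGAA occurred once in Notch3 and Anpep and 5 times in Vtn, and was in 3 of 7 member windows against 25.7% of 33469 RefSeq promoter windows of the same length. ACGTG occurred 3 times, all in Notch3, that is in 1 of 7 windows against 19.3%. The windows of Cspg4, Abcc9, Rgs5 and Ndufa4l2 held neither motif, and the CArG box was in 0 of 7 against 1.64%. A letter match is a description of these windows and no evidence of binding.

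The remaining hippocampal markers overlapped between groups, apart from Abcc9. Abcc9 stood at 4.75, 4.30 and 1.499 in sham and at 5.63, 4.95 and 4.89 in HI. The low sham 3 library set most of the difference of 0.54 ± 0.28 (adjusted p = 0.759), which was 0.16 without it. Pdgfrb stood at 5.47, 5.43 and 5.20 in sham and at 6.45, 4.14 and 4.87 in HI. Rgs5 stood at 52.2, 45.2 and 44.3 in sham and at 54.3, 35.3 and 41.2 in HI. HI library 1 was the highest and HI 2 the lowest of all 6 for both genes, and the log2 differences were -0.07 ± 0.13 and -0.13 ± 0.14. Cspg4 ranged from 6.21 to 7.77 in sham and from 7.15 to 7.20 in HI, Higd1b from 6.18 to 9.25 and from 6.002 to 7.79. Mcam ranged from 17.0 to 19.6 in sham and from 15.7 to 19.4 in HI, Ndufa4l2 from 5.42 to 6.21 and from 5.37 to 6.45. These 4 log2 differences lay between -0.07 and 0.04. HI 2 was the lowest library for 5 members, a count not made over all genes. Without HI 2 only 4 of the 10 markers had a lower mean in HI, beside a median log2 change of -0.0077 over all genes. Only Notch3 then had an unadjusted p under 0.05, against 1628 of 13077 genes (limma). Without HI 1, which carried the Y-chromosome and choroid plexus transcripts, 3 members did, Notch3, Vtn and Rgs5, against 680 of 13053 genes. With all libraries kept, 872 of 13181 genes did.

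Whether the HI change differed between the tissues was tested as an interaction over the 12 libraries. None of the 10 members passed the adjusted threshold in limma (0.0154% of 13015 genes passed), and 2 had an unadjusted p under 0.05, against 9.2% of all genes. These were Cspg4, whose log2 change in colon minus hippocampus was -0.34 ± 0.13 (adjusted p = 0.491), and Abcc9, at -0.80 ± 0.34 (adjusted p = 0.521). Abcc9 was the member whose HI libraries were all below sham in the colon and all above sham in the hippocampus. Without the low sham 3 hippocampus library its difference was -0.41. Notch3 was lower without overlap in both tissues, and its changes differed by 0.11 ± 0.12. The authors' deposited p-values are unadjusted and did not exceed 0.500 for any gene, the upper limit of a test in the direction seen alone. The limma test counts both directions, so the numbers under 0.05 are not on a like scale. In the authors' deposited table, p-values were under 0.05 in the colon for Cspg4 (0.00822), Notch3 (0.0222), Pdgfrb (0.0380), Abcc9 (0.0428) and Mcam (0.0494), 5 members against 13.5% of genes. In the hippocampus the authors' deposited table had 2 such members, Vtn (0.00935) and Notch3 (0.0195), against 10.1%.

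Other genes of mural cells and of the signals that reach them were set beside the members without a test of the difference. For comparison, 59.1% of all genes tested were lower in HI colon and 50.5% in HI hippocampus. At an unadjusted p under 0.05 in limma, 6.55% were lower and 4.6% higher in the colon, and 3.16% and 3.45% in the hippocampus. Of 16 further mural genes tested in the colon, 12 were lower and 4 higher (median -0.12), none past the adjusted threshold and 1 higher and 2 lower at an unadjusted p under 0.05. Gucy1b1, a nitric oxide receptor subunit, differed by -0.34 ± 0.10, and Steap4, a metalloreductase, by 0.45 ± 0.12. In the hippocampus 8 of 18 were lower (median 0.04). Heyl, a Notch target of mural cells, was lower without overlap in both tissues. It stood at 4.79, 5.27 and 4.87 in sham colon and at 3.88, 4.004 and 4.26 in HI colon (-0.24 ± 0.10, adjusted p = 0.439). In sham hippocampus it stood at 5.29, 5.76 and 5.03, and in HI at 4.57, 4.12 and 4.09 (-0.27 ± 0.09, adjusted p = 0.716). The other Notch ligands, receptors and targets were split, 7 of 13 lower in each tissue, with medians of -0.05 and -0.03. In the hippocampus Rbpj (0.23 ± 0.10) and Hes1 (0.24 ± 0.10) had higher means and Nrarp a lower one (-0.20 ± 0.07), all short of the adjusted threshold.

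**Figure D3:**
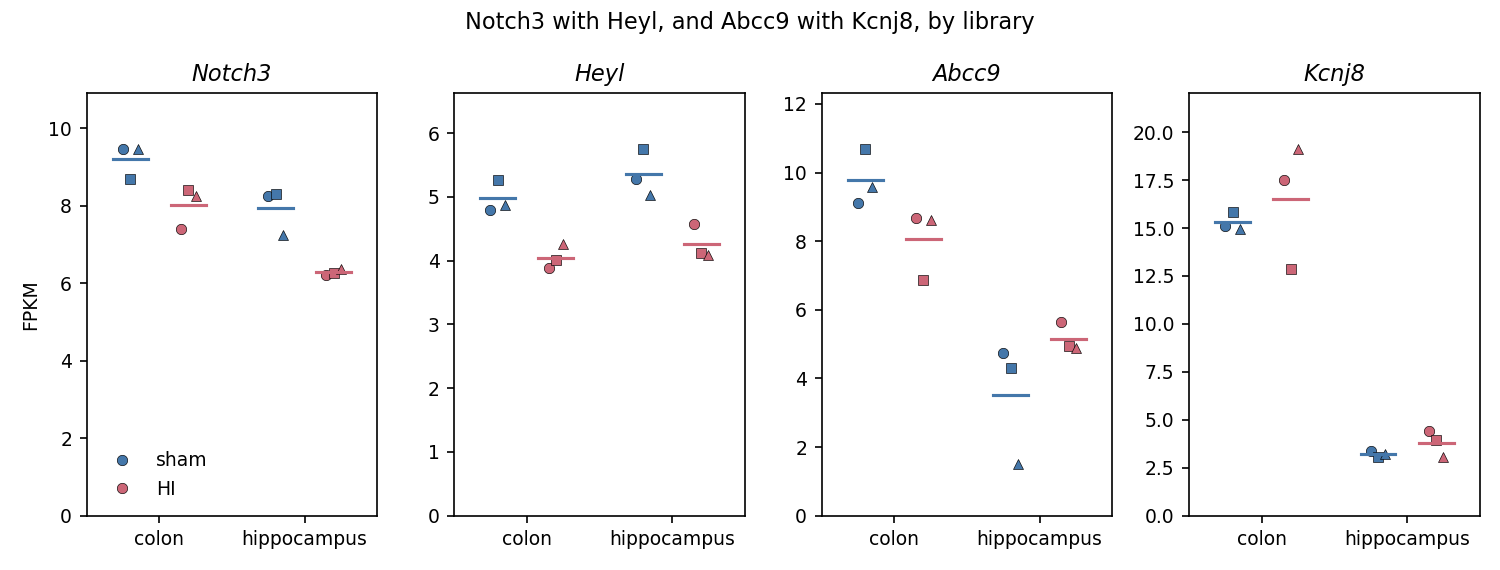
FPKM by library for member genes and functional partners in sham and HI colon and hippocampus; circle, square and triangle are libraries 1, 2 and 3 (sham colon 1, 3a and 3b). Notch3 and its target Heyl are lower in all HI than in all sham libraries of both tissues.

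By sign, 59.1% of all genes were lower and 40.9% higher in HI colon, and 50.5% lower and 49.5% higher in HI hippocampus. Of the PDGF ligands and other PDGF receptor genes, 5 of 6 were lower in the colon (median -0.05) and 3 of 5 in the hippocampus (-0.03). The gene with the smallest p in the colon had a higher mean in HI: Pdgfa, a ligand that binds mainly the alpha receptor, stood at 22.0 ± 2.68 in sham and 27.0 ± 1.34 in HI (0.29 ± 0.10, unadjusted p = 0.0228, adjusted p = 0.403, limma). No PDGF gene was lower at an unadjusted p under 0.05. Pdgfb, the ligand of Pdgfrb, had means of 8.12 ± 0.527 in sham and 8.01 ± 0.364 in HI colon, and of 23.6 ± 0.709 and 22.2 ± 2.98 in the hippocampus. Basement membrane genes, whose products surround the pericyte, were lower for 11 of 12 in the colon (median -0.15) and 8 of 11 in the hippocampus (-0.10). In the colon 4 of them were lower at an unadjusted p under 0.05, against 6.55% of all genes (limma). Nid1, a nidogen that links laminin to collagen IV, led in the colon at 81.9 ± 2.79 in sham and 65.6 ± 4.38 in HI (-0.32 ± 0.07, adjusted p = 0.304, limma). Nid2 led in the hippocampus at 7.64 ± 0.630 and 6.05 ± 0.218 (-0.29 ± 0.08). Of the angiopoietin, TGF-beta and sphingosine phosphate signals 12 of 15 were lower in the colon (median -0.10) and 8 of 15 in the hippocampus (-0.0091). Vitronectin's integrins and partners were lower for 3 of 7 and 0 of 4 (medians 0.04 and 0.17), and the channel subunits for 2 of 3 and 1 of 3 (-0.13 and 0.13). Genes of hypoxia-inducible factor, which induces Ndufa4l2, and of its targets were higher for 12 of 16 (median 0.13) and 11 of 15 (0.03). Of these Car9, carbonic anhydrase 9, stood at 17.9 ± 1.54 in sham and 31.3 ± 2.36 in HI colon (0.77 ± 0.09, adjusted p = 0.0788). Pdk1, a kinase that restrains pyruvate oxidation, had the next smallest p there and the opposite direction, at 23.1 ± 1.92 in sham and 18.9 ± 1.86 in HI (-0.28 ± 0.10, adjusted p = 0.408). No gene of these lists passed the adjusted threshold.

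Markers of cells that share the pericyte genes did not all take the direction of the pericyte genes, and their part in the values above was not tested. Counts and medians are over the genes tested, and summed FPKM is over all genes of the list that were listed, which were 13 for colon brush border, 9 for hippocampal fibroblast and 8 for hippocampal choroid plexus genes. Of all genes, 59.1% were lower in HI colon (median log2 change -0.04) and 50.5% in HI hippocampus (median -0.0015). In the colon 10 of 12 smooth muscle genes were higher in HI (median 0.09), and their summed FPKM was 6821 to 8167 in sham and 7276 to 8796 in HI. Of 12 endothelial genes 9 were lower (median -0.07), with sums of 140 to 159 and 121 to 157, and of 9 fibroblast genes 6 were lower (median -0.08), with sums of 2660 to 2782 and 2141 to 2764. The brush border genes that share Anpep's enterocyte source were higher for 7 of 12 (median 0.06) and summed to 1535 to 2249 and 1407 to 2213. In the hippocampus 9 of 10 smooth muscle genes were lower in HI (median -0.49), and the sums of 93.7 to 148 in sham and 64.3 to 84.9 in HI did not overlap, sham library 1 being the highest. Acta2, the smooth muscle actin, stood at 41.4, 23.9 and 24.8 in sham and at 14.2, 12.2 and 16.6 in HI (-0.98 ± 0.20, adjusted p = 0.599). Fibroblast genes were lower for 5 of 7 (median -0.38), with sums of 102 to 108 and 75.7 to 96.2. Of 13 endothelial genes 9 were lower (median -0.09; sums 151 to 167 and 144 to 160). Oligodendrocyte precursor genes, which share Cspg4, were higher for 6 of 7 (median 0.07; sums 188 to 231 and 202 to 246), and all 8 oligodendrocyte genes were higher (median 0.51; sums 1170 to 2060 and 1309 to 2665). In the colon 3 of 5 oligodendrocyte genes and 2 of 4 precursor genes were lower. Choroid plexus genes had higher means for 3 of 3 in HI hippocampus, with sums of 5.18 to 12.1 in sham and 18.2 to 4356 in HI, the highest in HI 1, the library with the highest Pdgfrb and Rgs5. They were lower for 3 of 4 in HI colon, and 1 of 2 brush border genes tested in the hippocampus was lower.

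**Figure D4:**
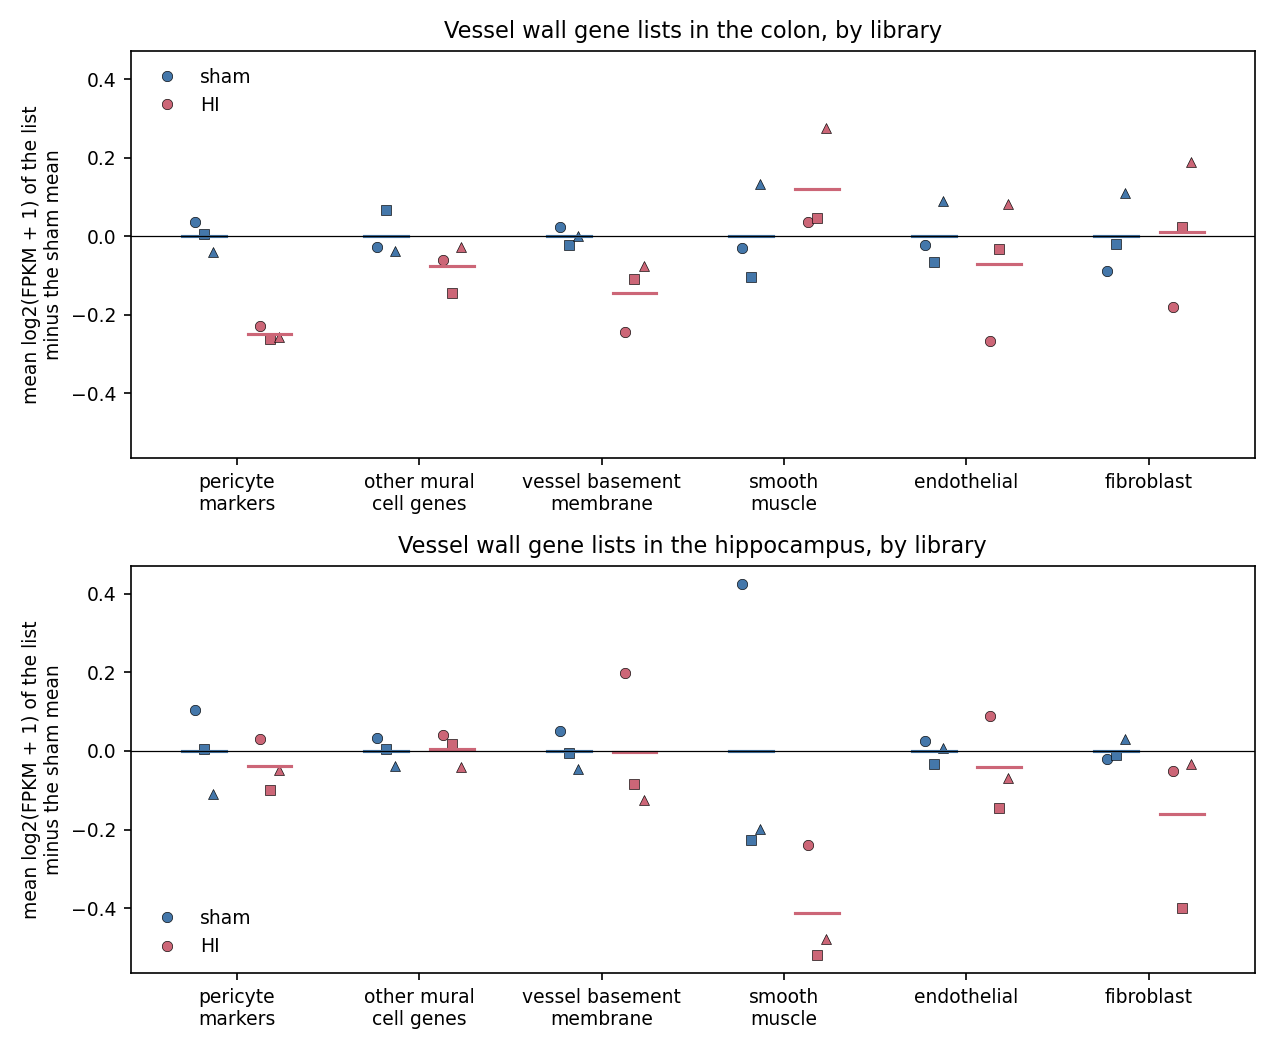
Mean log2(FPKM + 1) over the listed genes of 6 gene lists in every library minus the sham mean of that tissue; circle, square and triangle are libraries 1, 2 and 3 (sham colon 1, 3a and 3b). Pericyte markers of HI colon lie between -0.26 and -0.23, below the sham libraries, while smooth muscle genes lie above 0 there and below 0 in HI hippocampus.

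The genes closest to Pdgfrb across the 6 libraries of a tissue, by Pearson correlation of log2(FPKM + 1), are given as a description. In the colon these were Foxl1 (0.989), Kif24 (0.986), Cnot9 (0.985), Cdc25c (0.984) and Ltbp1 (0.983) among 13752 genes, and the closest member was Anpep (0.875), then Notch3 (0.751). In the hippocampus they were Igf2 (0.996), Lcn2 (0.994), Il10ra (0.993), Shisa2 (0.986) and Slc5a6 (0.985) among 13180 genes. Like Pdgfrb, all of these were highest in HI 1, the library with the choroid plexus transcripts, and lowest in HI 2. Igf2 stood at 45.1 and 9.20 FPKM in these libraries. Rgs5, with the same highest and lowest library, was the closest member in the hippocampus (0.946, rank 37), while Cspg4 (-0.04) and Ndufa4l2 (-0.02) were near 0. Genes compared in this way were measured in the same 6 libraries, HI and sham together.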

How the data were processed

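Bulk RNA libraries of rat colon and hippocampus, 3 per group, were grouped by their treatment and tissue. RNA was extracted with TRIzol and mRNA libraries were amplified by PCR, per the labels' protocols; the sources used here name no aligner, quantifier or genome build. The authors deposited FPKM per library, per the file headers, with a fold change (a ratio), a log2 fold change and an unadjusted p-value per gene. The deposited log2 fold change was HI minus sham in mean log2(FPKM + 1), to a tolerance of 1e-06, in all 14803 colon genes and in 14265 of 14266 hippocampus genes. Depth is unknown, so no counting interval is given.

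limma 3.58.1 in R 4.3.3 (eBayes with trend) was run on log2(FPKM + 1) per tissue, keeping genes that reached 1 FPKM in 3 or more libraries, with Benjamini-Hochberg adjustment over all genes (threshold 0.05), and as an interaction over 12 libraries. The script was tested on simulated data. The 10 members and 15 further lists were chosen with earlier results of these data known. Named were the members, up to 3 genes per list and tissue with the smallest p, and the 5 genes most correlated with Pdgfrb; Pdgfb in the colon, Kcnj8 beside Abcc9, and Ttr, Cdx2 and Camk2a were named for their role or after their values were seen. Gucy1b1 is listed under an older symbol. Alternatives were other pseudocounts, filters, scalings, covariates, a replicate block and leaving out each library.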

Additional observations from a re-analysis of the deposited data

Results flagged for a closer look

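The change of Abcc9 in colon minus hippocampus was -0.795 on the log2 scale. All HI colon libraries lay below all sham colon libraries, and all HI hippocampus libraries above all sham hippocampus libraries. The interaction had an adjusted p of 0.521 (limma), 0.325 to 0.834 over the alternatives, so the difference did not pass the threshold. It was -0.41 without sham hippocampus library 3, where Abcc9 stood at 1.499 FPKM.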

How the results depend on the processing

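None of the 10 members passed an adjusted p of 0.05 in either tissue or in the interaction under any alternative run. The number of all genes called was 6 in the colon, and 3 without the mean-variance trend, 1 with the Hox score as covariate, 24 in 1 fit over the 12 libraries and 2 to 38 with 1 library left out. In the hippocampus it was 1, and 0 with a pseudocount of 0.1, without the trend, with the myelin score as covariate and with the replicate block, and 0 to 5 with 1 library left out. For the interaction it was 2, and 1 with a pseudocount of 0.1 or median-ratio scaling, and 1 to 25 with 1 library left out. The members' median in the colon was -0.25, and -0.30 with a pseudocount of 0.1, -0.21 with median-ratio scaling and -0.30 to -0.20 with 1 library left out; in the hippocampus that range was -0.13 to 0.02, and 4 to 8 members were lower. In the colon 3 members had an unadjusted p under 0.05, against 1533 of 13753 genes (limma). With a pseudocount of 0.1 or median-ratio scaling 2 did (1526 and 1554 genes), and Higd1b had a p of 0.0613 and 0.0627 in limma. With the Hox score 0 members did (692 of 13753 genes), and in the fit over 12 libraries 5 (1983 of 13015). With 1 colon library left out 1 to 2 members did (678 to 2221 genes). In the hippocampus 2 members did (872 of 13181 genes), and 3 with the myelin score (812) or the replicate block (894). With 1 hippocampus library left out 1 to 3 members did (529 to 1628 genes).

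With 1 library left out, 6 of 10 hippocampal members turned direction under at least 1 omission and 0 of 10 colon members did. Such turns were not counted over all genes, and their cause was not tested. The quartiles of the log2 change over all genes were -0.07 and 0.08 in the hippocampus and -0.15 and 0.07 in the colon. The log2 change also turned direction with the Hox score for colon Vtn (0.13) and Ndufa4l2 (-0.37), and with median-ratio scaling for colon Pdgfb (0.0205). With the myelin score it did so for hippocampal Higd1b (0.0633) and Pdgfb (0.00332). With 1 library left out the colon range was -0.0231 to 0.25 for Kcnj8 and -0.0568 to 0.0262 for Pdgfb. The hippocampal range was -0.21 to 0.0552 for Pdgfrb, -0.0235 to 0.12 for Cspg4, -0.17 to 0.0918 for Higd1b, -0.30 to 0.0053 for Rgs5, -0.11 to 0.0382 for Mcam and -0.0835 to 0.0298 for Ndufa4l2. The interaction range was -0.10 to 0.20 for Rgs5 and -0.21 to 0.14 for Vtn. Car9 in the colon passed with an adjusted p of 0.0381 in the limma fit over 12 libraries.

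The replicate block was fitted in the hippocampus alone, since the colon columns do not carry matching numbers. Deviations of same-numbered hippocampal libraries from their group means had correlations of -0.05, 0.08 and -0.03. Those of differently numbered libraries ran from -0.14 to 0.14. With so few libraries per group these values cannot show whether the numbers pair them. With the block Abcc9 had an unadjusted p of 0.0484 in limma and an adjusted p above the threshold.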
